A study of Mus musculus with 17 samples.

Results

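The comparison was between mouse cerebella with and without Atr deletion in a background in which p53 was deleted as well. It used 7 of the 17 libraries of the series, taken by genotype label: 4 of mice with Math1-Cre, Atr-loxP/loxP and p53-loxP/loxP, called Atr-deleted here, and 3 of mice with Math1-Cre and p53-loxP/loxP, the controls. Both groups carried Math1-Cre and loxP-flanked p53 (Trp53), so they differed by label in the loxP-flanked Atr alleles only. The mice were C57BL/6 at postnatal day 3. The labels describe poly-A selected RNA of the cerebellum, extracted after the meninges were taken off, and sequenced as stranded mRNA libraries. Another Atr-deleted library, replicate 3, held 13601 counts in all and was left out. Its sample name is that of Atr-deleted replicate 1 with a suffix, and the labels do not say whether both are the same sample. A further 9 libraries, of the same strain and age, had Math1-Cre, Bax-loxP/loxP and Bak--/-, 5 of them with Atr-loxP/loxP and 4 without. They were used only to set the Atr effect of the p53-deleted background beside that of another background.

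Atr is the kinase that senses stretches of single-stranded DNA at stalled replication forks and, through its effector kinase Chk1, slows the cell cycle and holds back new replication origins. Cells that lose it in S phase enter mitosis with damaged chromosomes, and p53, a transcription factor, then turns on genes of cell cycle arrest and death. Math1 (Atoh1) drives Cre in granule neuron progenitors, which divide in the external granule layer of the cerebellum after birth under the mitogen Sonic hedgehog. Whole cerebellum also holds Purkinje cells, interneurons, glia and vessels, which arise outside the Math1 lineage, so cells without recombination contribute to each value. In such tissue, fewer cells of a type and less RNA per cell cannot be told apart.

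The 7 libraries held 64562877 to 72695310 estimated counts, and 17348 genes passed the filter on low counts. Values are CPM (counts per 1000000 counts of the scaled library), and log2 fold changes with their standard errors (SE) come from edgeR's quasi-likelihood test, in which a gene was called at a Benjamini-Hochberg adjusted p under 0.05. Replicate numbers (controls 1 to 3, Atr-deleted 1, 2, 4 and 5) only name libraries. Nothing in the labels says whether samples were separate animals or litters, so each p-value speaks only of sample-to-sample spread, part of which can be technical. The sample names carry a number: 1843 for the 4 Atr-deleted libraries and control 1, 1845 for controls 2 and 3. A pair of libraries stood apart. Control 1 had 2342 CPM of Lars2, a mitochondrial leucyl-tRNA synthetase, against 6554 to 9303 CPM in the other libraries, and 206.5 CPM of the ribosomal protein gene Rpl29 against 56.3 to 76.4 CPM. Atr-deleted 2 had 95290 CPM of mitochondrially encoded RNA against 20930 to 34230 CPM in the others, and 8.91 CPM of Y-linked RNA against 167 to 216 CPM.

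The engineered genes came first. Atr (chromosome 9, 95857597 to 95951781, plus strand, GRCm38) stood at 37.46, 35.65 and 35.7 CPM in controls 1 to 3 and at 35.51, 37.7, 33.51 and 39.96 CPM in Atr-deleted 1, 2, 4 and 5. The groups overlapped, with a mean of 36.7 ± 2.78 CPM (SD, n = 4) against 36.3 ± 1.03 CPM (n = 3) and a two-sided exact permutation p of 0.8286, where 0.02857 is the smallest p that 4 against 3 libraries can give. The 95% interval of the log2 fold change was -0.18 to 0.21. Trp53 was at 38.1 ± 6.74 against 36.9 ± 1.65 CPM (two-sided exact permutation p = 0.743). Bax (64.4 ± 7.75 against 65.1 ± 1.79 CPM) and Bak1 (37.9 ± 4.1 against 38.9 ± 2.06 CPM), which were not engineered in these mice, overlapped too. Atoh1, the gene whose promoter drives Cre, was at 23.97, 29.78 and 26.53 CPM in the controls and at 21.04, 14.83, 23.77 and 20.56 CPM in the Atr-deleted libraries. Each Atr-deleted value lay below each control value, but the difference missed the threshold (two-sided exact permutation p = 0.0571, 0.286 adjusted over the 5 genes). After that adjustment a lone gene could not have passed, even at the smallest p that 4 against 3 libraries can give. Sums over a whole gene count transcripts that lack a deleted exon as well, so these values do not measure the deletion.

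Across the genome, 8 of 17348 genes were called, all higher in the Atr-deleted libraries (0.0461% of the genes tested, and 0.0461% in the higher direction), and 0 were called lower. At an unadjusted p under 0.05 stood 1142 genes (6.58%), 573 of them higher (3.3%) and 569 lower (3.28%). DESeq2 called 86 higher and 42 lower, and limma-voom 4 higher and 0 lower. The count rested on single libraries: it was 13 without control 1 (5 higher, 8 lower), 2 without control 2, 4 without control 3, 3 without Atr-deleted 1, 2 without Atr-deleted 2 and 12 without Atr-deleted 4 (8 higher, 4 lower). With the number in the sample name as a term, Hist1h2bc was the only one of the 8 genes still called, and the other 7 had edgeR adjusted p-values of 0.1126 to 0.5221. In that fit the Atr effect rests on control 1, the only control that shares its number with the Atr-deleted libraries. Controls 2 and 3 inform only the spread. Groups without overlap were found for 1357 genes (7.82%), with 707 higher (4.08%) and 650 lower (3.75%). The log2 fold change was above 0 for 9089 genes (52.4%) and below 0 for 8217. Typical changes were small, with a median absolute log2 fold change of 0.12 beside a median SE of 0.14. The called genes were Hist1h2bc, Fgf21, Rps3a1, Hist1h2bq, Fut1, Gm13988, Olfr1372-ps1 and Cd209c.

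The upstream sequences of Fgf21 and of members of its stress response list are shown because their genes share a short motif. The transcription factor ATF4, the effector of the integrated stress response, binds composite C/EBP-ATF elements, searched here as TGATGNAA (N is any base) on both strands of the 250 bases before the start site in RefSeq (GRCm38.p6). Of 12555 tested genes with such a window, 319 held the motif (2.54%), and so did 3.45% of all 32851 windows. Of 40 integrated stress response genes with a window, 12 held it (30%), and of the 14 that were higher at an unadjusted p under 0.05, 4 did (28.6%). The windows of Fgf21, of the transcription factor gene Atf3 and of Chac1, a glutathione-degrading enzyme, each held 1 match, read on the strand opposite to the gene (TTNCATCA along the gene), with its first base 139, 110 and 193 bases before the start site. The windows are given 5′ to 3′ along the gene with the match in capitals.
Fgf21 (chr7:45615491-45615740, minus strand): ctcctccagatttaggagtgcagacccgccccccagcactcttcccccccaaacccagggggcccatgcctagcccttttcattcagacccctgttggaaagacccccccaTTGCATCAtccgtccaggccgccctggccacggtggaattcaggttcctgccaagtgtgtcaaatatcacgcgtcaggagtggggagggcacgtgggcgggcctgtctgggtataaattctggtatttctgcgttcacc
Atf3 (chr1:191183334-191183583, minus strand): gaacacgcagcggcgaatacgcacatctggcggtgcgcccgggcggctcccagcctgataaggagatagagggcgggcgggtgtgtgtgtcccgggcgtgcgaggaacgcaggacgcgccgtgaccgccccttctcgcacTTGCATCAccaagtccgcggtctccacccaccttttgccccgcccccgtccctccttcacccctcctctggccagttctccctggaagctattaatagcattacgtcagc
Chac1 (chr2:119350992-119351241, plus strand): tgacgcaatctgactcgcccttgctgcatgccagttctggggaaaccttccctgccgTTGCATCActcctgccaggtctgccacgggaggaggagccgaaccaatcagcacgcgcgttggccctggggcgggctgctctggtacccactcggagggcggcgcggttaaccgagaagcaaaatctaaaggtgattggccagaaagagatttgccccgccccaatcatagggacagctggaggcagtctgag
Fut1, the neighbour of Fgf21 and itself called, is read in the other direction, with 1799 bases between the annotated genes. Its window is shown for comparison.
Fut1 (chr7:45617356-45617605, plus strand): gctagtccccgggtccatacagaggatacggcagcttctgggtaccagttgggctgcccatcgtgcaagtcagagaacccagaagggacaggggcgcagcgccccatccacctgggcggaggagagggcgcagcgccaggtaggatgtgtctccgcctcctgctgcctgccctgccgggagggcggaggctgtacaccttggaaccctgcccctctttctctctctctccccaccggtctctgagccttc
The letters of the motif were not in the Fut1 window, nor in those of Gdf15, Atf5, Ddit3, Stc2, Trib3, Sesn2, Adm2 or Cd209c. Windows were set by the RefSeq start sites. Those of Fut1 and Cd209c lie inside the genes as annotated for counting, so the bases before those annotated genes were not searched. A match is a description of the letters and shows no binding.

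Fgf21 and Fut1 are neighbours on chromosome 7, and both rose from near 0. Fgf21 (45613886 to 45615490, minus strand) encodes a hormone of nutrient and mitochondrial stress that is normally made mostly in the liver. It was at 0.056, 0 and 0.0295 CPM in controls 1 to 3, and at 3.57, 2.39, 3.54 and 3.49 CPM in Atr-deleted 1, 2, 4 and 5. The controls held 6 counts in all and the Atr-deleted libraries 893, a ratio of 114 (exact 95% interval 52.2 to 312, counting error only). The log2 fold change was 6.74 ± 0.52 (SE, edgeR adjusted p = 0.00233). Against control 1 alone, the control that shares the number 1843, it was 5.80. In that fit, as in each against control 1 alone, the spread comes from the Atr-deleted libraries only, and the lone control is assumed to vary like them. With the number as a term the log2 fold change, which again rests on control 1, was 5.81 with an edgeR adjusted p of 0.113. The call was then lost. Fut1 (45617289 to 45621059, plus strand) encodes a fucosyltransferase that builds the H antigen on glycans. It was at 0.014, 0.0847 and 0.0737 CPM in the controls (12 counts in all) and at 1.39, 1.28, 1.10 and 2.24 CPM in the Atr-deleted libraries (416 counts). The groups were far apart, with a log2 fold change of 4.67 ± 0.52 (edgeR adjusted p = 0.0202). Its call was kept in 3 of the 7 fits that left out 1 library and lost without control 2, control 3, Atr-deleted 1 or Atr-deleted 2, with an edgeR adjusted p of up to 0.123.

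A pair of the called genes encode histones. Hist1h2bc encodes a histone H2B and lies on chromosome 13 (23684199 to 23692908, plus strand). It was at 9.72, 9.38 and 10.8 CPM in controls 1 to 3 and at 53.5, 47.7, 47.9 and 62.4 CPM in Atr-deleted 1, 2, 4 and 5. The libraries within a group were close and the groups did not meet. The log2 fold change was 2.41 ± 0.12 (edgeR adjusted p = 0.000124). It was the gene of smallest p and stayed called in all 7 fits that left out 1 library. The log2 fold change was 2.43 against control 1 alone and 2.39 against controls 2 and 3. With the number as a term it was 2.44 (edgeR adjusted p = 0.0233), an effect that again rests on control 1. Hist1h2bq, another H2B gene (chromosome 13, 21806612 to 21810197, minus strand), was at 0.392, 0.593 and 0.604 CPM in the controls and at 2.57, 2.93, 2.49 and 4.21 CPM in the Atr-deleted libraries (2.52 ± 0.28, edgeR adjusted p = 0.0202). It shares 98.3% of its 31-base words with transcripts of other genes and Hist1h2bc shares 33.5%, so the division of reads between H2B copies is uncertain, more so for Hist1h2bq.

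The other called genes were a lectin, a ribosomal protein gene and a pair of pseudogenes. Cd209c, a C-type lectin related to DC-SIGN (chromosome 8, 3940222 to 3954746, minus strand), was at 1.11, 1.72 and 1.18 CPM in controls 1 to 3 and at 13.75, 10.88, 6.718 and 20.01 CPM in the Atr-deleted libraries (3.26 ± 0.38, edgeR adjusted p = 0.0202). Its relative Cd209f went the other way, at 1.15, 0.931 and 1.21 CPM against 0.419, 0.304, 0.413 and 0.0982 CPM (-1.83 ± 0.44, adjusted p = 0.374, not called). The summed Cd209 genes were at 2.54 ± 0.164 CPM (SD, n = 3) in the controls and 13.2 ± 5.45 CPM (n = 4) in the Atr-deleted libraries. Of 16 tested markers of border and perivascular macrophages, the cells known to express such lectins, Cd209c alone was called and 12 had a log2 fold change below 0. Their median was -0.34, against 0.01 over all genes tested, and their summed level was 48.0 to 89.6 CPM in the controls and 50.5 to 104 CPM in the Atr-deleted libraries. The part of these cells in the Cd209c result was not tested. Olfr1372-ps1, a transcribed olfactory receptor pseudogene on chromosome 11, was at 2.50, 2.87 and 3.32 CPM against 14.4, 12.9, 8.56 and 18.8 CPM (2.24 ± 0.26, edgeR adjusted p = 0.0202). Gm13988, a processed pseudogene on chromosome 2, had 26 counts in the controls and 580 in the Atr-deleted libraries (4.06 ± 0.46, edgeR adjusted p = 0.0202). Each of these 3 genes, like Hist1h2bq, kept its call only without Atr-deleted 4 or Atr-deleted 5 among the 7 fits that left out 1 library.

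Rps3a1, which encodes a protein of the small ribosomal subunit, was at 121, 87.4 and 113 CPM in the controls and at 777, 1112, 457 and 764 CPM in the Atr-deleted libraries (2.86 ± 0.28, edgeR adjusted p = 0.0172). It shares 75.7% of its words with other genes. Its copies Rps3a2 and Rps3a3 were high where it was low. Rps3a2 was at 465, 487 and 456 CPM in the controls and at 0.514, 0.365, 204 and 0.309 CPM in the Atr-deleted libraries. Rps3a3 was at 98.3 to 118 CPM against 0.906, 0.623, 48.9 and 0.982 CPM. The sum of the 3 genes was 704, 672 and 682 CPM in the controls and 779, 1113, 709 and 765 CPM in the Atr-deleted libraries, a ratio of 1.23 where Rps3a1 alone gave 7.26. How reads divide among these near-identical copies is uncertain, and its part in the Rps3a1 value was not tested. The call was lost without control 2, control 3 or Atr-deleted 2. Without Atr-deleted 4, the one Atr-deleted library with more than 1 CPM of Rps3a2, Rps3a2 (-10.2, edgeR adjusted p = 9.54e-07) and Rps3a3 (-7.03, 6.79e-06) were called lower. Rpl3 and Gm10260 split by the number in the sample name, with control 1 on the side of the Atr-deleted libraries. Rpl3 was at 537 CPM in control 1 and 517 to 829 CPM in the Atr-deleted libraries, but at 127 CPM in controls 2 and 3. Gm10260 was at 115 and 109 CPM in controls 2 and 3 and at 0.168 CPM in control 1, against at most 0.304 CPM in the Atr-deleted libraries.

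**Figure D1:**
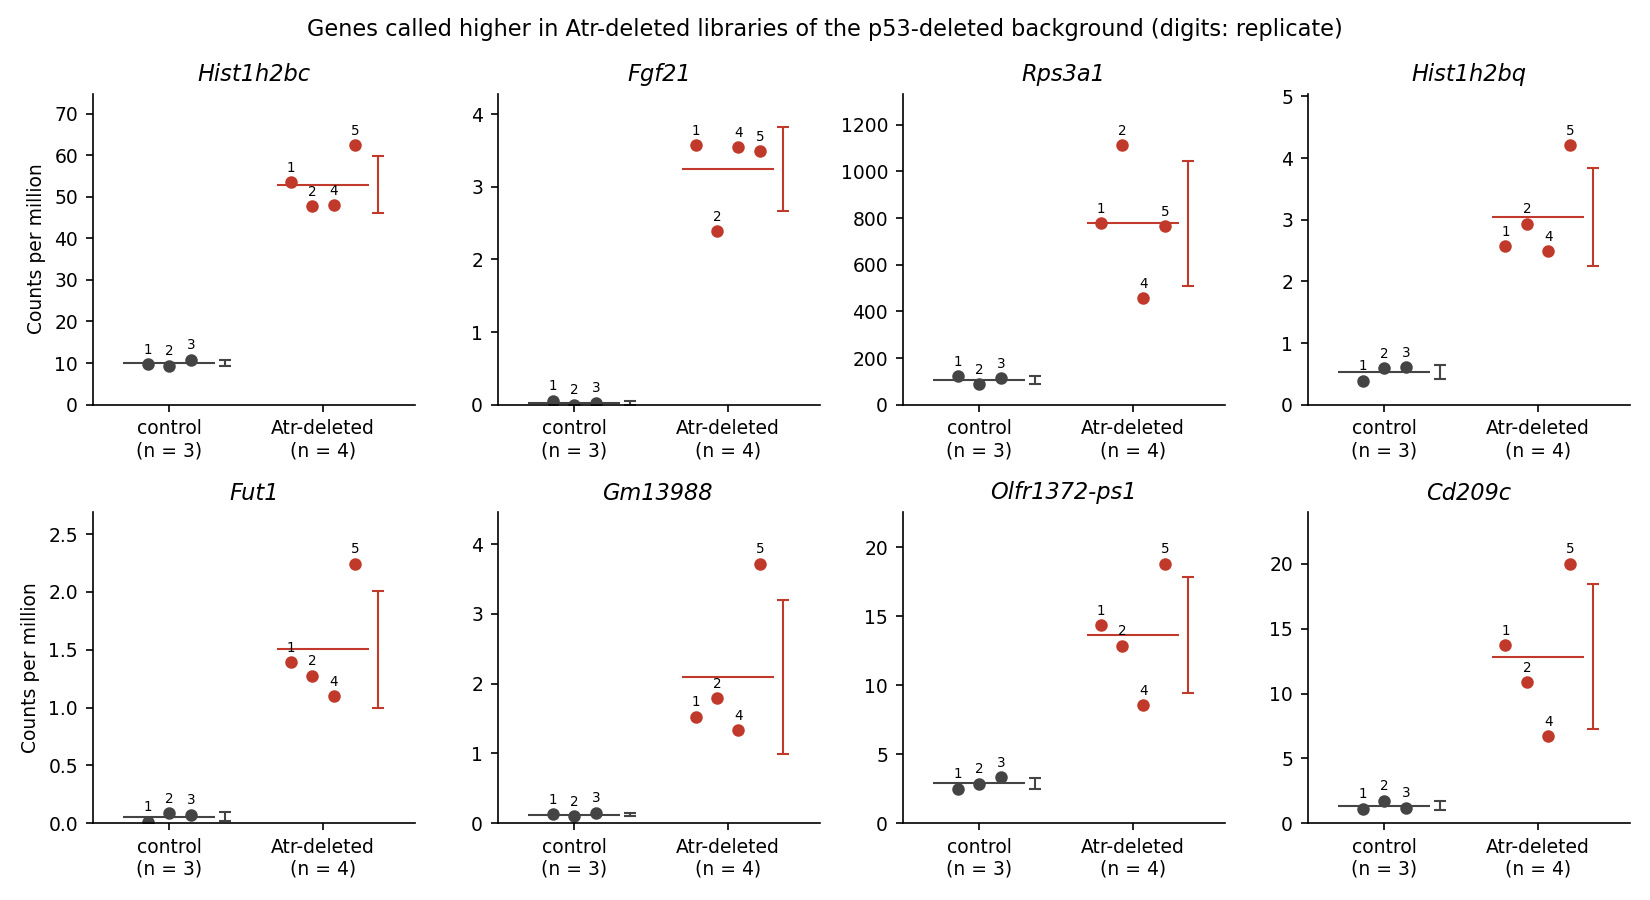
CPM in each library (points, with the replicate as a digit) for the 8 called genes, with group means (lines) and SD (bars), controls in dark grey (n = 3) and Atr-deleted in red (n = 4). The 4 Atr-deleted points lie above the 3 control points in each panel, most evenly for Hist1h2bc (47.7 to 62.4 against 9.38 to 10.8).

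The integrated stress response reduces general translation and turns on ATF4 and its targets, which import and make amino acids, charge tRNAs and encode secreted stress hormones. Of 50 listed genes, all tested, Fgf21 was the one called, 16 were higher and 0 lower at an unadjusted p under 0.05, and 45 of 50 had a log2 fold change above 0. Over all genes tested, 3.3% were higher and 3.28% lower at that p, and 52.4% had a log2 fold change above 0. The median of the list was 0.13, against 0.01 over all genes. The values that follow are of members other than Fgf21, and none of them passed the threshold in the fit of all 7 libraries. The hormone gene Gdf15, also a p53 target, was at 0.014, 0 and 0.103 CPM in controls 1 to 3 (8 counts in all) and at 0.947, 0.821, 0.953 and 1.02 CPM in Atr-deleted 1, 2, 4 and 5 (257 counts), a log2 fold change of 4.55 ± 0.72 (edgeR adjusted p = 0.121). The groups did not overlap. Of the 8 control counts 7 were in control 3, and without that library the log2 fold change was 6.73 and Gdf15 was called (edgeR adjusted p = 0.0316). The ratio of the summed counts was 24.6 (exact 95% interval 12.3 to 57.7, counting error only).

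Among the transcription factors, Atf5 was at 22.0, 18.8 and 22.4 CPM in the controls and at 42.0, 28.1, 38.4 and 51.2 CPM in the Atr-deleted libraries (0.92 ± 0.18, edgeR adjusted p = 0.252). Ddit3, the pro-apoptotic factor CHOP, was at 12.3, 9.07 and 8.84 against 16.9, 14.8, 15.4 and 17.2 CPM (0.68 ± 0.14, adjusted p = 0.34). Atf3 was at 1.62, 1.44 and 2.26 against 5.04, 3.19, 3.43 and 6.66 CPM (1.37 ± 0.30, adjusted p = 0.352). Each of the 3 genes was without overlap between the groups, and Atr-deleted 2 had the lowest value of its group in each. Atf4 itself, which is regulated mainly in its translation, was at 141, 174 and 166 CPM against 170, 162, 164 and 168 CPM (0.05 ± 0.09), and the groups overlapped.

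Among the effectors, the arginine transporter gene Slc7a3 was at 3.88, 3.71 and 4.29 CPM in the controls and at 7.17, 7.29, 6.54 and 8.32 CPM in the Atr-deleted libraries (0.89 ± 0.15, edgeR adjusted p = 0.126). Eif4ebp1, an inhibitor of cap-dependent translation, was at 4.66, 4.98 and 5.73 against 10.5, 7.42, 10.3 and 9.52 CPM (0.88 ± 0.16, adjusted p = 0.184). Stc2, a secreted glycoprotein, was at 3.69 to 4.27 CPM against 6.20 to 6.88 CPM (0.76 ± 0.14, adjusted p = 0.181). The groups were separate for all 3. Trib3, a pseudokinase, overlapped (0.734 to 1.55 against 1.53 to 3.53 CPM). Of the amino acid enzyme genes, Gpt2 was at 82.3 to 93.7 against 99.7 to 120 CPM (0.37 ± 0.09), with no overlap. Asns was at 52.6 to 58.1 against 55.3 to 68.5 CPM (0.22 ± 0.10), and overlapped. Slc7a11, the cystine transporter, was the member of lowest log2 fold change at -1.06 ± 0.66, with 29.9 and 23.7 CPM in Atr-deleted 1 and 4 and 128 and 103 CPM in 2 and 5. The endoplasmic reticulum chaperone gene Hspa5 was at 343 to 444 CPM against 384 to 422 CPM (0.09 ± 0.11).

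By library, the median deviation of the 50 genes from the control mean, on log2(CPM + 0.5), was 0.22, 0.18 and 0.27 in Atr-deleted 1, 4 and 5 and -0.02 in Atr-deleted 2, against -0.03 to 0.02 in the controls. Without Atr-deleted 2, 26 of the 50 were higher at an unadjusted p under 0.05 and the median log2 fold change was 0.21. Against control 1 alone 10 were, and the median was 0.14. When all 16 deep libraries of the series were fitted together, which estimates the spread from both backgrounds, the members called higher were Fgf21, Gdf15 (edgeR adjusted p = 0.00166), Stc2 (0.00232), Slc7a3 (0.00532), Atf5 (0.00716), Eif4ebp1 (0.0106), Atf3 (0.0169), Gpt2 (0.0275) and Ddit3 (0.0449). Over all 18166 genes of that fit, 46 were called higher and 24 lower.

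**Figure D2:**
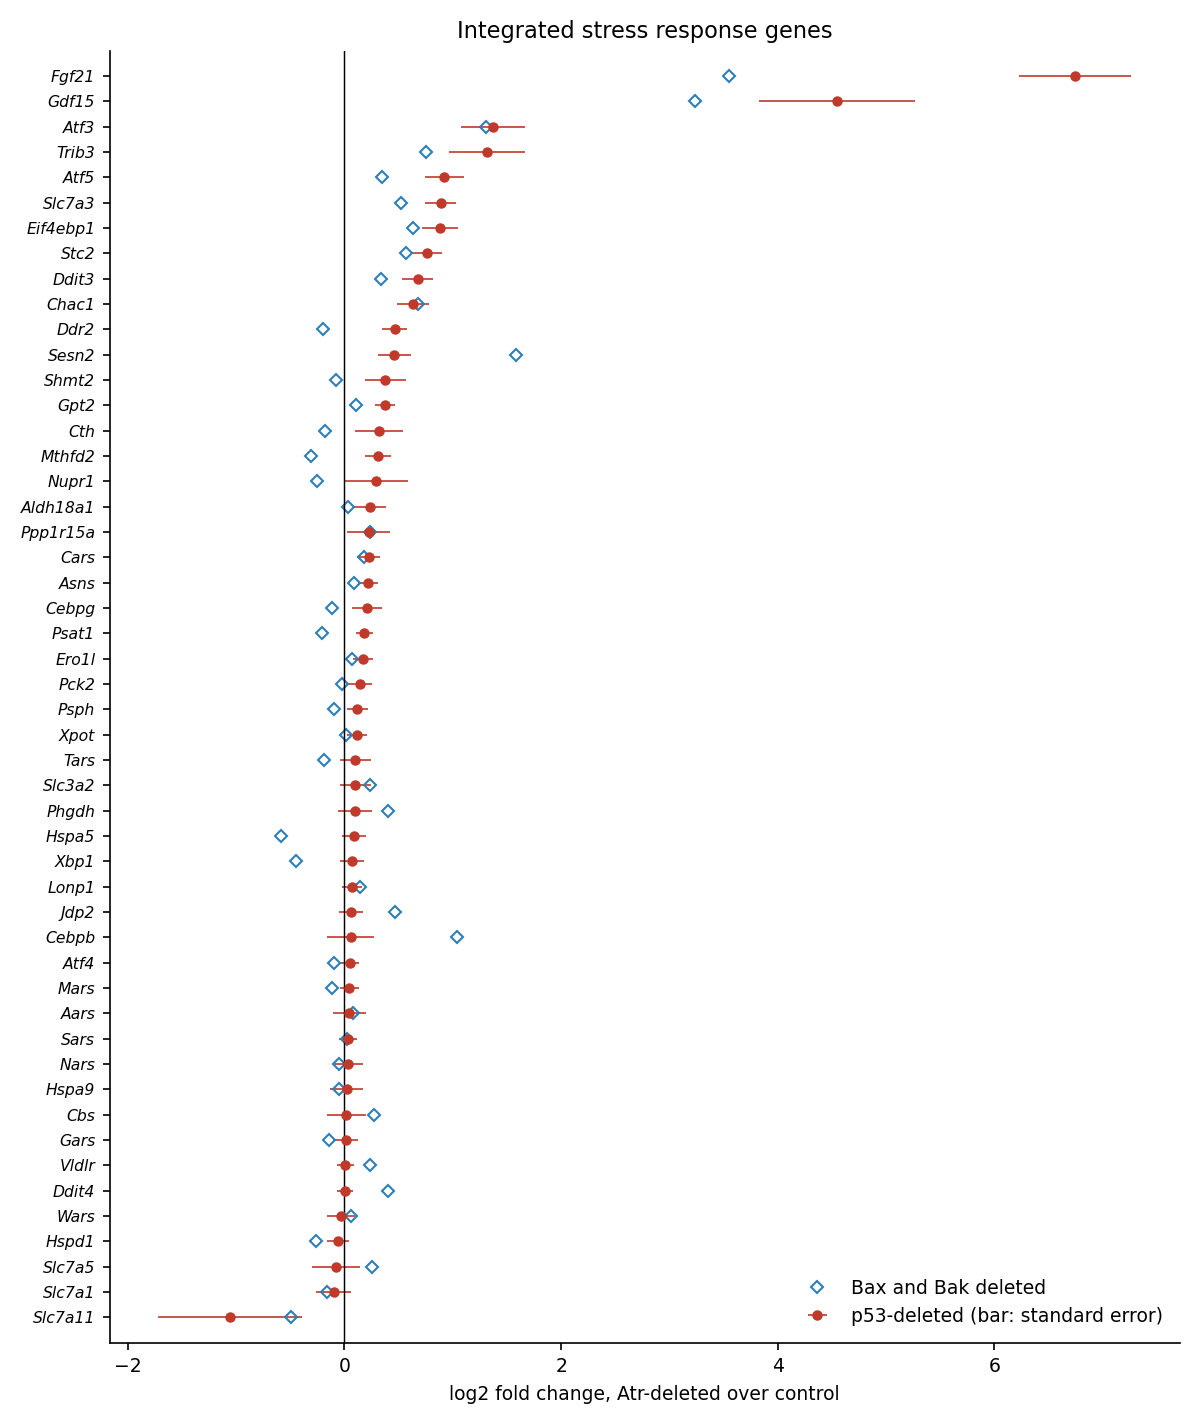
The log2 fold change (Atr-deleted over control) of each of 50 integrated stress response genes in the p53-deleted background (red, with SE) and in the Bax and Bak deleted background (blue diamonds). Of the 50 red points, 45 lie above 0, from 6.74 for Fgf21 down to -1.06 for Slc7a11.

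Genes of the clustered histones are expressed in S phase and their main transcripts end in a stem-loop without a poly-A tail, so a poly-A selected library sees only a small part of them. Of 59 that passed the filter, 2 were called higher, 30 were higher and 1 lower at an unadjusted p under 0.05, and 25 had all Atr-deleted libraries above all controls, with 1 the other way (4.08% and 3.75% of all genes tested). The median was 0.71, against 0.01 over all genes. Their summed level was 181, 165 and 176 CPM in controls 1 to 3 and 291, 305, 282 and 312 CPM in Atr-deleted 1, 2, 4 and 5, with no overlap. A large part of that rise was Hist1h2bc alone, with means of 9.97 and 52.9 CPM. Most members had a control mean under 1 CPM. Reads are divided among similar copies, so the members counted here are not separate observations. By class, 11 of 16 H2B genes, 6 of 12 H3, 5 of 12 H4, 4 of 5 H1 and 4 of 14 H2A genes were higher at an unadjusted p under 0.05. The medians were 1.17 for H2B, 0.70 for H3, 0.71 for H4, 1.43 for H1 and 0.29 for H2A.

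Examples that were not called include the linker histone gene Hist1h1c, at 7.64, 8.79 and 12.7 CPM in the controls and 33.9, 20.3, 27.7 and 37.8 CPM in the Atr-deleted libraries (1.63 ± 0.24, edgeR adjusted p = 0.104). Hist2h2be, another H2B, was at 8.76 to 11.5 CPM against 14.2 to 21.8 CPM (0.96 ± 0.17, adjusted p = 0.168). The exception was Hist1h2al, annotated as a processed pseudogene with 81.9% shared words, at 0.763 CPM in the control mean and 0.0947 CPM in the Atr-deleted mean (-3.04, adjusted p = 0.668). Atr-deleted 4 held most of the latter at 0.365 CPM, and without it Hist1h2al was called lower (-6.88, edgeR adjusted p = 0.0311). Control 1 was low for the list, with a median deviation of -0.18 where controls 2 and 3 had 0.06 and 0.10 and the Atr-deleted libraries 0.33 to 0.47. Without control 1 the median log2 fold change was 0.60, with 24 of 61 genes higher at an unadjusted p under 0.05. Against control 1 alone it was 1.34, with 31 of 63. The share of RNA with a poly-A tail was not measured, and its part in these values was not tested.

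**Figure D3:**
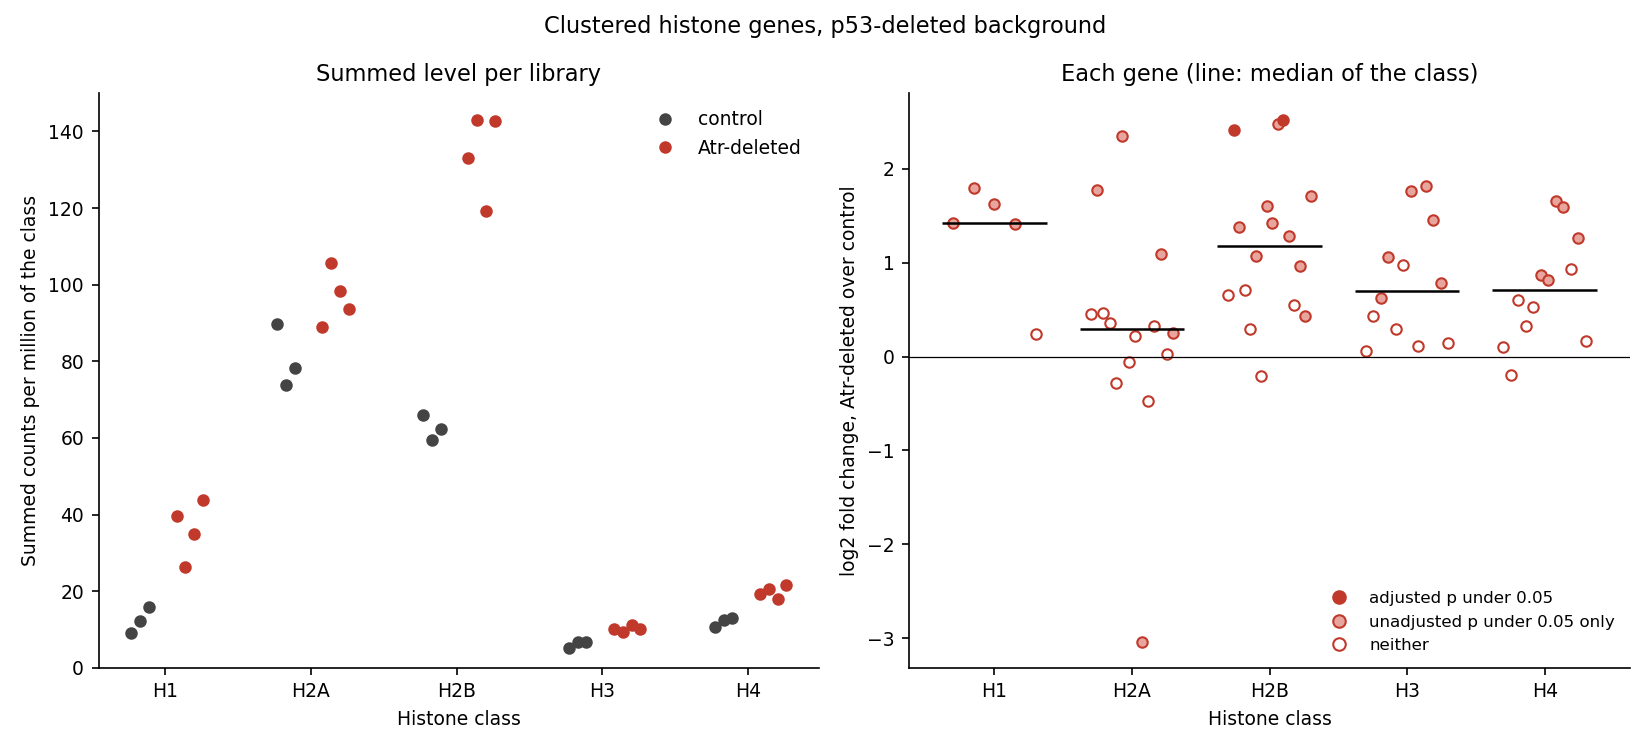
Left, the summed CPM of each histone class in each library (controls grey, Atr-deleted red). Right, the log2 fold change of each tested gene with the median of its class, filled by the p it reached. The H2B sums were 59.5 to 66.1 CPM in the controls and 119 to 143 CPM in the Atr-deleted libraries. Of these, Hist1h2bc alone had 9.38 to 10.8 and 47.7 to 62.4 CPM.

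The p53 targets, genes that p53 binds and turns on after DNA damage, showed no shift as a group. Of 57 listed genes tested, 0 were called and 3 were higher and 0 lower at an unadjusted p under 0.05 (Gdf15, Sesn2 and Aen). The median was 0.01, and 0.01 over all genes. Cdkn1a, the cyclin-dependent kinase inhibitor p21, was at 73.1, 79.0 and 70.3 CPM in controls 1 to 3 and at 74.4, 63.4, 80.4 and 77.8 CPM in the Atr-deleted libraries, a log2 fold change of -0.003 ± 0.099 with a 95% interval of -0.23 to 0.22. Eda2r, a death receptor of the tumour necrosis factor family, was at 11 to 11.66 against 9.464 to 13.59 CPM (95% interval -0.28 to 0.33). Pmaip1, the BH3-only protein Noxa, was at 4.77 to 5.41 against 4.29 to 6.89 CPM (-0.25 to 0.56). Aen, an apoptosis-enhancing nuclease, was the member with the most even shift, at 45.14, 41.77 and 44.27 against 49.98, 50.51, 51.58 and 49.96 CPM (0.21 ± 0.08, edgeR adjusted p = 0.661). The Bcl-2 family and caspases had 0 of 32 called, 0 higher and 3 lower at an unadjusted p under 0.05, and a median of -0.02. The 3 were Bcl2 (32.8 ± 0.913 CPM, SD, n = 3, against 27.9 ± 2.66 CPM, n = 4), Bok and Bcl2l11.

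The cell cycle lists had small shifts. Of 55 S phase and replication genes, 0 were called, 0 were higher and 7 lower at an unadjusted p under 0.05, and 48 had a log2 fold change below 0, with a median of -0.13. The 7 became 0 without control 2, 1 without control 3 and 0 against control 1 alone. The transcription factor gene E2f2 was at 20.8, 26.2 and 24.0 CPM in the controls and at 18.9, 11.8, 16.9 and 19.0 CPM in the Atr-deleted libraries (-0.51 ± 0.17, edgeR adjusted p = 0.607). Tk1, thymidine kinase, was at 37.43 to 44.7 against 29.88 to 36.03 CPM (-0.31 ± 0.10). Atr-deleted 2 was lowest in both, and its median deviation over the list was -0.43 against -0.11 to -0.03 in the other Atr-deleted libraries. Without it the list's median was -0.07. Of 55 genes of G2 and mitosis, 0 were called and 3 were higher and 0 lower at an unadjusted p under 0.05, with a median of 0.06. These were Hmmr, a spindle protein (36.7 to 40.1 against 44.4 to 57.5 CPM, 0.43 ± 0.10), Sgo1, which protects centromeric cohesion, and Aurka, the mitotic kinase. Atr-deleted 2 had a median deviation of -0.22 and the other Atr-deleted libraries 0.13 to 0.19, and without it 26 of the 55 were higher at an unadjusted p under 0.05 and the median was 0.16.

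In the Atr-Chk1 pathway and repair list, 0 of 56 were called, with 3 higher and 2 lower at an unadjusted p under 0.05 and a median of -0.06. Chek1, the gene of Chk1, was at 19.7, 19.4 and 18.1 CPM in the controls and at 23.2, 21.9, 25.6 and 24.0 CPM in the Atr-deleted libraries (0.31 ± 0.09, edgeR adjusted p = 0.541), with no overlap. Etaa1, an activator of Atr, was at 30.54 to 33.52 CPM against 24.7 to 31 CPM (-0.27 ± 0.10, adjusted p = 0.704). In the Sonic hedgehog and granule progenitor list, 0 of 33 were called, with 2 higher and 6 lower at an unadjusted p under 0.05 and a median of -0.13. Sfrp1, a secreted inhibitor of Wnt, was at 113 to 149 CPM against 64.4 to 108 CPM (-0.55 ± 0.17, adjusted p = 0.582). In the granule neuron list, 0 of 36 were called and 0 were higher and 5 lower, with a median of -0.17. Grin2b, a subunit of the NMDA receptor, was at 94.0, 92.4 and 103 CPM against 54.5, 58.2, 70.9 and 68.3 CPM (-0.61 ± 0.11, adjusted p = 0.168), and the groups did not overlap.

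Interferon response and DNA sensing genes, which answer to DNA in the cytoplasm, had 0 of 45 called, 2 higher and 3 lower at an unadjusted p under 0.05 and a median of -0.19. Mx1, an antiviral GTPase, was at 2.02, 1.86 and 2.31 CPM in the controls and at 4.29, 9.44, 5.81 and 7.38 CPM in the Atr-deleted libraries (1.70 ± 0.27, edgeR adjusted p = 0.121). It stood apart from its list, of which 31 of 45 had a log2 fold change below 0. The cholesterol synthesis and uptake list had 0 of 30 called, 0 higher and 3 lower at an unadjusted p under 0.05 and a median of -0.11. Fdps, which makes farnesyl diphosphate, was at 94.0 ± 1.15 CPM (SD, n = 3) in the controls and 80.0 ± 6.99 CPM (n = 4) in the Atr-deleted libraries (-0.23 ± 0.09, edgeR adjusted p = 0.695). The immediate early genes had 0 of 31 called and a median of -0.01, with Myc at 24.7 ± 2.93 CPM (SD, n = 3) against 19.1 ± 1.8 CPM (n = 4).

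Among genes on no list with a mean of at least 1 CPM, the smallest p-values beyond the called genes were those of Trim66, Dera and Stag3. Trim66, a chromatin reader, was at 4.88 to 5.504 CPM in the controls and at 11.4 to 21.6 CPM in the Atr-deleted libraries (1.59 ± 0.21, edgeR adjusted p = 0.0584). Dera, deoxyribose-phosphate aldolase, was at 10.3 to 11.1 CPM against 15.7 to 17.9 CPM (0.68 ± 0.10, adjusted p = 0.0956). Stag3, a cohesin subunit of meiotic cells, was at 7.02 to 9.30 CPM against 14.6 to 21.4 CPM (1.03 ± 0.16, adjusted p = 0.121). In the other direction, Myo6, an unconventional myosin, was at 99.6, 101 and 105 CPM against 71.1, 75.7, 63.4 and 73.5 CPM (-0.52 ± 0.08, adjusted p = 0.121). Sstr2, a somatostatin receptor, was at 61.7 to 76.3 CPM against 37.9 to 49.6 CPM (-0.72 ± 0.12, adjusted p = 0.137). None of these 5 genes overlapped between the groups, but their choice by small p made that likely. Of all genes tested, 7.82% did not overlap.

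Markers of other cell types were read for the makeup of the samples. Myelin and mature oligodendrocyte genes had 0 of 21 called, 0 higher and 10 lower at an unadjusted p under 0.05, and 21 of 21 below 0, with a median of -0.44. Mobp was at 3.51, 7.16 and 10.98 CPM in controls 1 to 3 and at 0.96, 2.10, 1.05 and 1.21 CPM in the Atr-deleted libraries (-2.44 ± 0.39, edgeR adjusted p = 0.126). Mbp, myelin basic protein, was at 100, 214 and 226 CPM against 92.0, 86.4, 79.2 and 114 CPM, so control 1 lay among the Atr-deleted libraries. Over the list control 1 lay just above the Atr-deleted libraries, with median deviations of -0.32 in control 1, 0.14 and 0.21 in controls 2 and 3, and -0.41 to -0.34 in the Atr-deleted libraries. Against control 1 alone the list's median was -0.03, with 1 of 22 genes lower at an unadjusted p under 0.05. Against controls 2 and 3, whose number differs from that of the Atr-deleted libraries, it was -0.65 with 14, and Mobp was called there (-2.77, edgeR adjusted p = 0.0388). The number in the sample name and the genotype cannot be told apart in that comparison.

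Meningeal and fibroblast markers had 20 of 20 below 0 with a median of -0.70, but overlapped between the groups for every tested marker. Their summed level was 534, 1004 and 1492 CPM in the controls and 1000, 360, 539 and 474 CPM in the Atr-deleted libraries. Endothelial and pericyte markers had 0 of 27 at an unadjusted p under 0.05 and a median of -0.19. Oligodendrocyte precursor markers had 4 of 14 lower and a median of -0.18, with Pdgfra at 181 ± 17.7 CPM (SD, n = 3) against 135 ± 12.7 CPM (n = 4). Astrocytes and Bergmann glia (26 tested, median -0.05), microglia (23, -0.02), Purkinje cells (26, 0.05), GABAergic interneurons (18, 0.04), unipolar brush cells and deep nuclei (14, 0.06), brainstem and midbrain (20, 0.07), choroid plexus (17, -0.35), blood (16, 0.02) and muscle, skin and bone (13, 0.12) had 0 called. At an unadjusted p under 0.05, choroid plexus had 3 lower and 0 higher, and blood 3 higher and 0 lower. Astrocytes and Bergmann glia had 3 lower and 1 higher, and the rest of these lists at most 2 in either direction. Over all genes tested, 3.3% were higher and 3.28% lower. Mitochondrially encoded RNA had 13 of 13 above 0 and a median of 0.66, which was -0.006 without Atr-deleted 2. The 4 Y-linked genes had a median of -0.35, with the same library low.

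**Figure D4:**
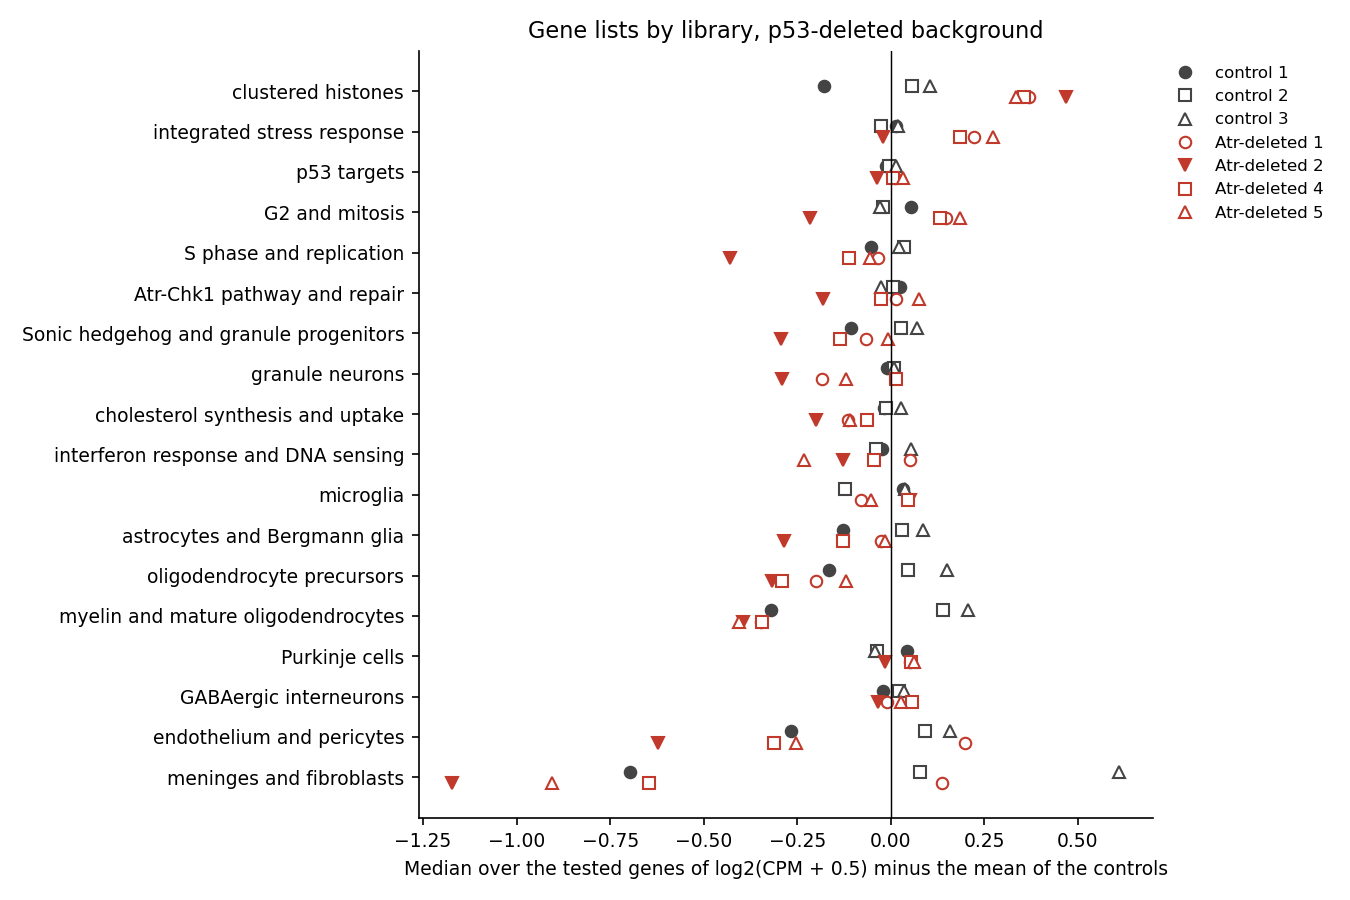
For each gene list shown, the median over its tested genes of log2(CPM + 0.5) minus the mean of the 3 controls, in each control (grey) and Atr-deleted library (red). Control 1 (filled circle) lies near the Atr-deleted libraries for myelin, and Atr-deleted 2 (filled triangle) lies apart for the S phase (-0.43) and G2 and mitosis (-0.22) lists.

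The genes around the engineered loci were counted against the 6.58% of all genes at an unadjusted p under 0.05. Within 10 Mb of Atr 124 genes were tested, 0 were called and 9 stood at an unadjusted p under 0.05 (7.26%). Within 10 Mb of Trp53 342 were tested, 0 were called and 6 did (1.75%).

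The Atr effect was then set beside that in the Bax and Bak deleted background, whose labels name no p53 allele and which shares no library with it. The backgrounds differ in p53, in Bax and Bak and in the numbers of their sample names. The part of each in a difference between the Atr effects cannot be told apart. The words without p53 only name the p53-deleted background. In the Bax and Bak deleted background, 7744 of 17405 genes were called (44.5%), 3919 higher (22.5%) and 3825 lower (22%). Its sample names carry 1836 for the Atr-deleted libraries and 100019 or 1842 for the controls. The number and the genotype therefore cannot be told apart in that comparison. Among the 16958 genes tested in both backgrounds, 22.3% were called higher there and 22.5% lower. Of the 8 genes called without p53, 7 were called in the same direction there. Rps3a1 was called in the opposite direction (log2 fold change -0.46, edgeR adjusted p = 0.00024). Fgf21 was at 0.0635 ± 0.0447 CPM (SD, n = 4) in those controls and 0.701 ± 0.121 CPM (n = 5) in those Atr-deleted libraries (log2 fold change 3.55), and its log2 fold change was larger without p53 by 3.19 (edgeR adjusted p of the difference = 0.0123). Hist1h2bc was at 10.2 ± 1.79 against 28.4 ± 3.83 CPM (1.48), and was larger without p53 by 0.94 (0.00281). Fut1 had 2.07 there, a difference of 2.61 (0.00847). For Cd209c (2.40 there, difference 0.88, adjusted p = 0.134), Olfr1372-ps1 (1.86, 0.39, 0.459), Gm13988 (3.10, 0.97, 0.222) and Hist1h2bq (3.38, -0.85, 0.143) the difference missed the threshold, which does not show that the effects were alike. Of 554 genes higher without p53 at an unadjusted p under 0.05 and tested in both, 73.1% had the same sign and 33.6% were called higher in the Bax and Bak deleted background. Of 555 lower ones, 61.6% had the same sign and 35% were called lower. Over all 16958 genes the sign was the same in 53.4%.

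The difference between the Atr effects was called for 2934 of 18166 genes (16.2%), 1469 with the larger log2 fold change without p53 (8.09%) and 1465 with the smaller (8.06%). The count was 1822 without control 2 and 1634 without control 3. For the p53 targets it was called smaller without p53 in 34 of 57 and larger in 1, and their median was 0.84 in the Bax and Bak deleted background. The 6 genes of smallest p were Cdkn1a, Map3k20, Nectin4, Pmaip1, Eda2r and Ptp4a3, for which the difference was -2.26, -1.40, -2.28, -3.41, -2.06 and -1.35 on the log2 scale. In the Bax and Bak deleted background, Cdkn1a was at 55.0 ± 5.94 CPM (SD, n = 4) in controls and 264 ± 26.6 CPM (n = 5) in Atr-deleted libraries. For G2 and mitosis the difference was called in 53 of 55, all larger without p53 (median 0.06 against -0.83), and for S phase in 39 of 55, all larger (median -0.13 against -0.78). In Chek1 the difference was 1.25 (edgeR adjusted p = 2.11e-05). For the integrated stress response it was called in 11 of 50, 8 larger and 3 smaller without p53. For Sesn2 it was -1.12 (edgeR adjusted p = 0.000197) and Atf5 had 0.92 against 0.35 (adjusted p of the difference = 0.0421). For Atf3 (1.37 against 1.31) and Gdf15 (4.55 against 3.23) it missed the threshold. Myelin genes were called different in 15 of 21, all smaller without p53, where the number in the sample name moved with the result as above.

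**Figure D5:**
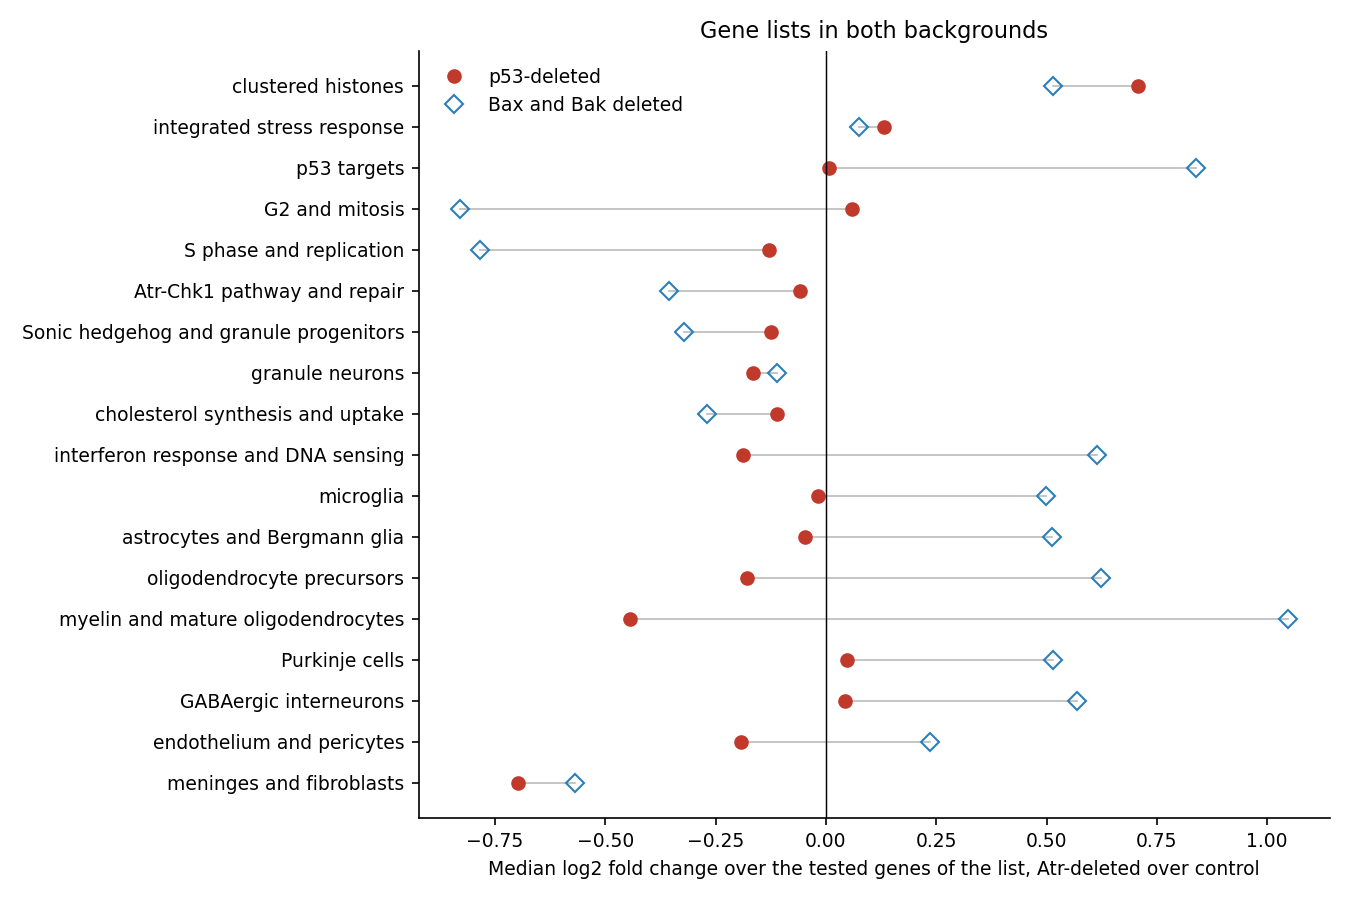
The median log2 fold change (Atr-deleted over control) of each gene list shown, in the p53-deleted background (red, over the genes tested) and the Bax and Bak deleted background (blue diamonds, over the genes tested in both). The p53 targets lie at 0.01 and 0.84, G2 and mitosis at 0.06 and -0.83, and the clustered histones at 0.71 and 0.52.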

How the data were processed

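RNA of 7 libraries from postnatal day 3 cerebella was compared. For each Ensembl transcript and each of 2 lanes the authors deposited an estimated count without normalization. Tools named in the submitters' processing notes are kallisto 0.42.4 and edgeR, and the builds are mm9 and GRCm38, with no roles given. Estimated counts divide reads among similar transcripts, so near-identical genes depend on that division.

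Lanes were added, and gene totals were formed with the GENCODE M21 annotation (GRCm38) and rounded. Of 94080 transcript identifiers 92284 matched, and the rest held 0.788% to 1.04% of the counts in the 7 libraries. In the left-out shallow library both lane columns were identical and were counted once. Genes passing edgeR's expression filter by group were fitted with TMM scaling and robust quasi-likelihood (edgeR 4.0.16, R 4.3.3), with Benjamini-Hochberg adjustment over all genes. The Bax and Bak deleted background was fitted alone, and the difference between Atr effects as an interaction over 16 libraries. SE is the log2 fold change over the square root of F. For engineered genes a two-sided exact permutation test was run in R. The exact intervals of the count ratios came from SciPy 1.17.1.

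The members and the gene lists were chosen with earlier results of these data known, so the lists have counts and medians only, with no test. Named genes were the engineered genes, all called genes, called members or the 3 smallest p of each list, the 10 smallest p not called at a mean of at least 1 CPM, and the 6 smallest p of the interaction. The result on 1 gene that the rule selects was left out and is not reported here, and others are given by counts only. Of each list further members, and Rps3a2, Rps3a3, Rpl3, Gm10260, Lars2 and Rpl29, were chosen after their values were seen. Shared words are the percent of all 31-base stretches of a gene that occur in another gene's transcripts. The fit was tested on simulated counts. The alternatives took upper-quartile or median-of-ratios scaling, other filters, thresholds of 0.01 and 0.1, DESeq2 1.42.0, limma-voom (limma 3.58.1), transcripts, added terms, a joint fit, the shallow library kept and libraries left out.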

Additional observations from a re-analysis of the deposited data

Results flagged for a closer look

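In 15 of 131 sets of values checked in the 4 Atr-deleted libraries, 1 library stood apart from the other 3, where chance gives about 1 in 20. That figure holds for unrelated sets not chosen by their values. Many of these are related, such as the mitochondrial genes, or Kdm5d and the Y-linked list, and most genes were chosen by small p. An excess over chance was not tested. Atr-deleted 2 was that library for Fgf21 (2.386 CPM), Sesn2 (14.76 CPM), Cdc6 (11.03 CPM), mt-Atp6 (9828 CPM), mt-Co2 (9786 CPM), mt-Co3 (12660 CPM) and Kdm5d (8.039 CPM). It also was for the median deviations of the G2 and mitosis (-0.216), Y-linked (-5.377) and Purkinje cell (-0.016) lists. Atr-deleted 1 stood apart for Spi1 (3.746 CPM) and Ngp (0.8383 CPM), Atr-deleted 4 for Etaa1 (31 CPM), and Atr-deleted 5 for Enpp6 (5.805 CPM) and Acan (0.9534 CPM).

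The Atr effect differed between the p53-deleted and the Bax and Bak deleted background (edgeR interaction, adjusted p under 0.05) for 43 of 103 named genes, against 16.2% of all genes tested. The named genes include 6 chosen for the smallest p of this difference. Except for the engineered genes, the rest were chosen by small p in the p53-deleted background, whose libraries also enter the difference. With that choice, the count is no comparison of the named genes with all genes, and an excess was not tested. The values are the log2 fold change without p53 minus that in the other background. Among the called genes the difference was 0.937 for Hist1h2bc, 3.191 for Fgf21, 3.334 for Rps3a1 and 2.608 for Fut1. For Rps3a1 the division of reads among its copies is uncertain, as given above. Among p53 targets and cell death genes it was -2.259 for Cdkn1a, -1.401 for Map3k20, -2.275 for Nectin4, -3.407 for Pmaip1, -2.06 for Eda2r, -1.346 for Ptp4a3, -1.118 for Sesn2, -0.732 for Aen, 0.499 for Bok and -0.925 for Bcl2l11.

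Genes of growth, replication and mitosis had 0.59 for Sfrp1, 0.701 for E2f2, 0.779 for Tk1, 1.063 for Hmmr, 1.907 for Sgo1, 1.26 for Aurka, 1.247 for Chek1, 0.839 for Exo1, 0.509 for Etaa1 and -0.608 for Myc. The cholesterol synthesis gene Fdps had 0.363. Glial and myelin genes had -0.845 for Slc4a4, -2.108 for Enpp6, -1.192 for Bcas1, -4.015 for Mobp, -4.152 for Tmem125 and -2.732 for Mag. Markers of other cells had -2.195 for Cd209f, -1.114 for Neurog1, -0.494 for Rgs5, -1.381 for Nefh, -0.418 for Plcb4, -0.5 for Dgkb, 2.105 for Ngp and -1.506 for Acan. The genes on no pathway list had 0.71 for Trim66, 1.084 for Dera and 1.179 for Sstr2, and the H2B gene Hist2h2be had 1.239.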

How the results depend on the processing

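The Atr effect without p53 (8 calls) gave 14 calls with no filter, 128 with DESeq2, 4 with limma-voom, 2 at a threshold of 0.01, 23 with the shallow library kept, 5 against control 1 alone, 13 against controls 2 and 3, 2 with the number in the sample name as a term, 2 with Y-linked RNA as a term, 70 with all deep libraries in the fit, 5 on transcripts, and 2 to 13 with 1 library left out. Without control 1 and Atr-deleted 2 together, chosen after seeing the data, it gave 30. The fit with the shallow library counted it as a separate sample, which it may not be. That adds to the degrees of freedom almost without adding data. On genes, Hist1h2bc kept its call in 24 of 24 alternatives and Fgf21 in 23 of 24. These alternatives are not separate checks. Leaving out control 1 and comparing with controls 2 and 3 only are the same fit, counted under both names. The term for Y-linked RNA nearly repeated the fit without Atr-deleted 2, with log2 fold changes of 2.454 and 2.453 for Hist1h2bc. A looser threshold cannot lose a call. On transcripts Hist1h2bc was the only one of the 8 still called. The difference between backgrounds (2934) gave 1176 at a threshold of 0.01, 448 against control 1 alone and 1634 to 3561 with 1 library left out.

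With the shallow library kept, the difference in mean CPM between the groups became -6.93 for Atr and -6.405 for Trp53, since that library holds almost no counts. The list medians with 1 library left out ran from -0.648 to -0.359 for myelin and from 0.601 to 0.883 for the histones. Against control 1 alone the medians were -0.026 for myelin, 1.335 for the histones and 0.061 for the p53 targets, and against controls 2 and 3 they were -0.648 for myelin and 0.601 for the histones, alternatives for the lists that were chosen after seeing the data. Without control 1 and Atr-deleted 2 together they were 0.24 for the integrated stress response, 0.214 for G2 and mitosis and 0.521 for the histones. Except where stated, the cause was not tested. No paired analysis was possible because the labels give no replicate numbers, and numbers assigned in accession order only name libraries. The number in the sample name, fitted as a term above, pairs no libraries.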
